A study of Mus musculus with 12 samples.

Results

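Potassium channel genes were followed in islets of Tg7 mice, whose β-cells overexpress the microRNA miR-7a, and of wild-type (Wt) littermates. They were chosen by name: every row of the count table with a mouse symbol that starts with Kcn and with 50 or more counts over all libraries. Of 37991 rows, 96 had such a symbol and 71 passed the count limit. The 71 rows carry 69 symbols, because Kcnb2 and Kcnh8 are each split over 2 gene identifiers in the annotation. Just inside the limit were Kcna2 with 66 counts and Kcnh4 with 67, and just outside it were Kcnq3 with 42 and Kcnh5 with 39. Of the 25 rows left out, 5 had no count at all. By symbol, 30 rows were voltage-gated subunits, 13 inward rectifiers, 9 two-pore-domain channels, 10 calcium- or sodium-activated channels with their β subunits, and 9 other auxiliary subunits.

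Bulk RNA-seq was done on islets of male C57BL/6 mice in 4 groups, Wt and Tg7 at 2 weeks (2w) and at 12 weeks (12w) of age, with 3 libraries a group. Tg7 mice carry a β-cell-specific transgene for miR-7a2. They are normoglycaemic at 2w and diabetic at 12w, and no cell type was removed from the islets. Each library was made from RNA pooled from at least 3 animals, so that p-values measure the spread between pools, not between single mice. The libraries held 11610697 to 17515758 counts, of which the channel genes took 0.0722% to 0.132%, or 8385 to 21667 counts. Levels are CPM, the counts of a gene scaled to a common library total after TMM normalisation. Only values divided by the exon length in kilobases (CPM per kb) are compared between genes. A gene was called changed when its adjusted p was under 0.05 over the 15961 genes tested, which included 69 of the 71 channel rows. Kcna2 and Kcnj14 had too few counts for the test. Of 10 β-cell markers, 8 were lower in Tg7 islets at 2w and 8 at 12w, of which 7 were lower at both ages. The summed level of the 10 at 2w was 111105 to 180817 CPM in the Wt and 27692 to 52782 in the Tg7 libraries, and at 12w 199077 to 482566 and 100469 to 105812. None of 6 α-cell markers was called at either age. Of 11 stellate, pericyte and fibroblast markers, 6 were higher at 2w and 10 at 12w, and 7 of 8 endothelial markers were higher at 12w. In whole islets, fewer cells of a type and less RNA per cell cannot be told apart.

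Potassium channels let potassium leave the cell and hold the membrane at a negative voltage. In the β-cell, glucose metabolism closes the ATP-sensitive channel, built from the pore subunit Kcnj11 and the sulfonylurea receptor Abcc8, and the depolarisation that follows opens calcium channels and releases insulin. Voltage-gated and calcium-activated channels end each burst of electrical activity. Two-pore-domain channels carry a background current.

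A microRNA pairs through its seed, bases 2 to 8, with sites in the 3′ UTRs of messenger RNAs. The mature mouse miR-7a-5p, as listed by RefSeq, is shown with the seed in capitals.
miR-7a-5p: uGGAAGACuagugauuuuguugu
The match to this seed, GTCTTCC, was searched on the transcribed strand of the annotated 3′ UTRs of the genome build NCBIM37 (mm9). It was found in 15 of 68 channel rows with an annotated 3′ UTR (22.1%) and in 13.2% of 14406 tested genes. The channel genes had longer 3′ UTRs, with a median of 1635 bases against 1151, and held 0.118 matches per kb against 0.098. Shown first are the sites of the 4 rows with a match that were called changed at either age. Then come the 3 sites in which an A follows the match (8mers). In each site the match is in capitals.
Kcnab3, chr11:69146451-69146457, plus strand: cagatgacttcagtcGTCTTCCtggcaata
Kcnj2, chr11:110938043-110938049, plus strand: tgttttgtatctaaaGTCTTCCtattgtac
Kcnmb4, chr10:115900330-115900336, minus strand: tagggaggtaaccaaGTCTTCCttcaggat
Kcnq5, chr1:21390240-21390246, minus strand: actttgtcatttaaaGTCTTCCcccccacc
Kcnab2, chr4:151765362-151765368, minus strand: tgtttctgagaggttGTCTTCCacacccac
Kcnf1, chr12:17181400-17181406, minus strand: agaggagctgcttgtGTCTTCCagccctcc
Kcnk6, chr7:30007299-30007305, minus strand: tgtgcatatgtgtgaGTCTTCCaccctaca
Coordinates are those of the 7 matching bases. Among the 15 rows with a match, Kcnab3 was lower and Kcnj2 and Kcnmb4 were higher in Tg7 islets at 2w. At 12w Kcnj2, Kcnmb4 and Kcnq5 were higher and none of the 15 rows was called lower. The Kcnb2 row with a match was at −1.35 at 12w (SE 0.51, adjusted p = 0.0702). The other Kcnb2 row, which is not among the 15, was called lower at 12w (−1.60, SE 0.55, adjusted p = 0.0481). The median log2 fold change of the 15 was 0.32 at 2w and −0.24 at 12w, against 0.32 and 0.42 for the 51 tested channel genes whose 3′ UTR held no match. Kcnj12, Kcnh1 and Kcnj11, which were lower at both ages, had no match. A match is a description of the sequence and was not tested as a binding site. The row of the hairpin Mir7-2 held 0 to 13 counts in every library, and the mature miRNA was not measured in these libraries.

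First, the levels of the channels were set in order. Kcnk16, a two-pore-domain channel largely restricted to the pancreas, had the highest level per kb in all 4 groups. Its means were 100.3 ± 3.84 CPM per kb in 2w Wt islets, 125.4 ± 7.97 in 2w Tg7, 108.6 ± 36.0 in 12w Wt islets and, in Tg7 islets of that age, 147.3 ± 6.17 (SD, with n = 3 libraries each, as in all means that follow). Its gene model, at chr14:21081978-21088384, holds 879 bases of exon and no UTR, so that its value per kb is not on the same footing as that of genes with UTRs. Kcnj11 came next in Wt islets, at 47.0 ± 3.16 CPM per kb at 2w and 49.8 ± 10.5 at 12w, and in both ages its libraries did not overlap those of the next gene below. In 2w Tg7 islets it was at rank 4, with 21.7 ± 3.51 CPM per kb, behind Kcnh6 at 35.7 ± 5.60 and Kcnh2 at 23.5 ± 0.360, and its libraries overlapped those of Kcnh2 and Kcnk1. In 12w Tg7 islets it was at rank 3, with 32.7 ± 1.70, below Kcnh2 at 34.9 ± 0.486. Kcnh2 and Kcnh6 encode channels of the ether-a-go-go related (ERG) type, which repolarise cells after an action potential. Kcnk1, a weakly conducting two-pore-domain subunit, lay between 17.75 and 28.04 CPM per kb in the group means. Also among the 8 most abundant members were Kcnmb2, a β subunit of the large-conductance calcium-activated (BK) channel, and Kcnip1, a calcium-binding partner of Kv4 channels.

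**Figure D1:**
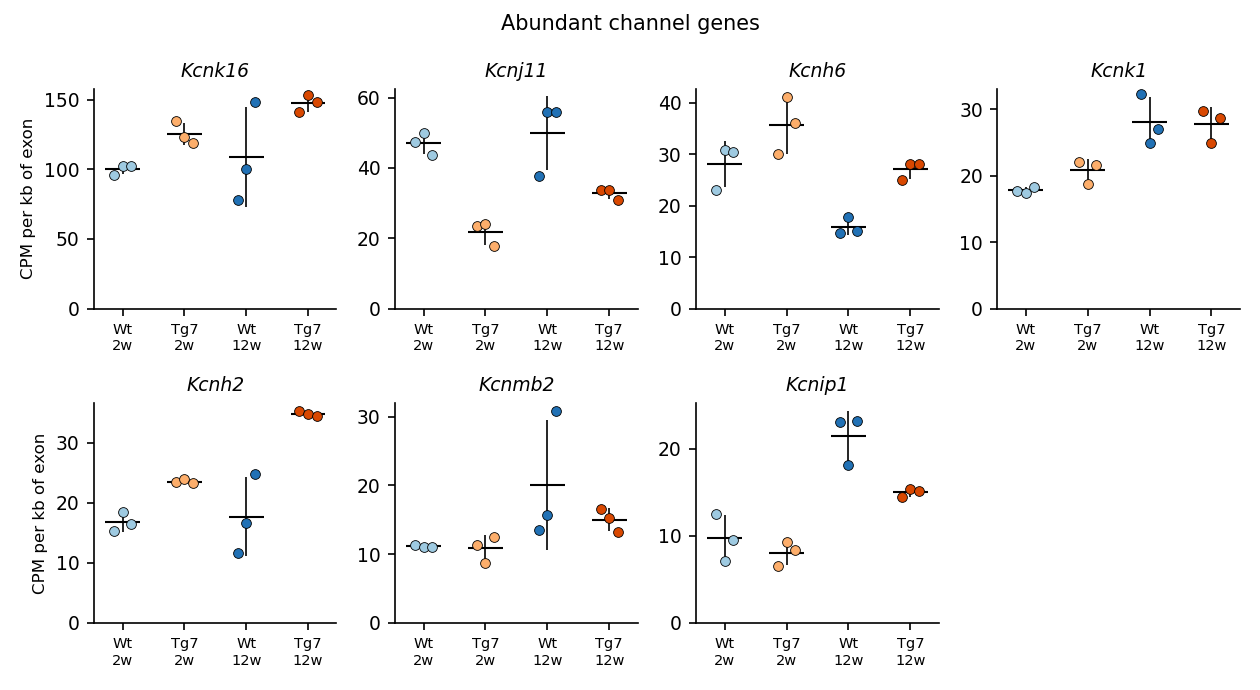
Each point is 1 library and shows the CPM per kb of exon of 7 of the 8 channel genes with the highest mean over all libraries. Horizontal bars are group means and vertical bars 1 SD, n = 3. Kcnj11 is lower in Tg7 than in Wt islets at both ages, Kcnh6 and Kcnh2 are higher at 12w, and 1 of the 12w Wt libraries is high for Kcnk16, Kcnh2 and Kcnmb2.

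Summed over all 71 rows, channel transcripts came to 350.6 ± 5.56 CPM per kb in 2w Wt, 369.7 ± 4.65 in 2w Tg7, 389.3 ± 66.2 in 12w Wt islets and 429.9 ± 7.34 in Tg7 islets of that age. Kcnj11 made up 13.4% ± 0.907 of this sum in Wt islets and 5.87% ± 0.899 in Tg7 islets at 2w, and 12.8% ± 1.85 and 7.61% ± 0.477 at 12w. Kcnk16 made up 28.6% ± 0.664 and 33.9% ± 2.19 at 2w, and 27.4% ± 4.36 and 34.3% ± 0.952 at 12w. Two-pore-domain channels together held 39.0% ± 0.622 of the sum in Wt islets and 46.3% ± 2.33 in Tg7 islets at 2w, and 39.5% ± 1.85 and 47.1% ± 0.139 at 12w. In 2w Wt islets Kcnk16 gave 100.3 of the 136.7 CPM per kb of the two-pore-domain channels, against 86.6 for the voltage-gated channels. The shares therefore depend on the value per kb of Kcnk16, which comes from a gene model without UTR. They are descriptions and were not tested. The 12w Wt group spread most, from 331.6 to 461.6 CPM per kb, and its highest library was replicate 4.

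**Figure D2:**
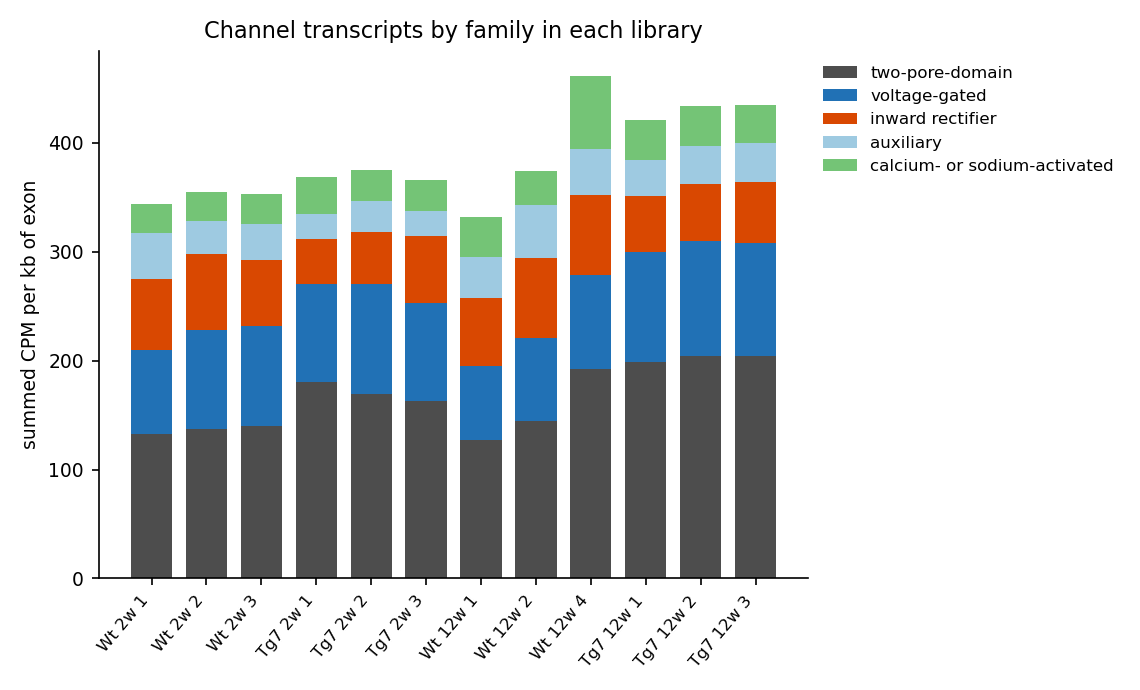
Stacked bars give, for each library, the CPM per kb of exon summed over the channel genes of 5 families. Two-pore-domain channels form the largest block in every library, most of it Kcnk16, whose gene model holds no UTR. The block of calcium- or sodium-activated channels is widest in 12w Wt replicate 4.

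At 2w, before diabetes, 13 of the 69 tested channel genes (18.8%) were called changed in Tg7 islets, against 10.6% of all tested genes. Higher were 8 (11.6%, against 6.07% of all genes) and lower were 5 (7.25%, against 4.55%). The median log2 fold change was 0.32 for the channel genes and 0.03 for all genes. Each of the 13 had Tg7 libraries that lay all on 1 side of the Wt libraries, which describes the same values that gave the calls. Over all tested channel genes, 22 had all Tg7 libraries above all Wt libraries (31.9%, against 17.8% of all genes) and 7 had them below (10.1%, against 18.1%). Without Wt replicate 1 of this age 7 calls were left and without Wt replicate 3 8 calls, of which 2 and 3 were higher and 5 lower in each case. Calls that were lost under these conditions were all of genes that were higher in Tg7 islets. Without Tg7 replicate 3, which stood apart for several rectifier genes below, 13 were called.

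The greatest fall was that of Kcnj12, an inward rectifier of the Kir2 type that holds the resting potential in excitable cells (chr11:60836066-60884633). It had 13.5, 11.8 and 11.6 CPM in the 2w Wt libraries and 0.747, 0.195 and 0.745 in the Tg7 libraries. The level was 21.0-fold lower (log2 fold change −4.40, SE 0.42, adjusted p = 2.91e-05). At 12w it had 5.29, 8.10 and 8.47 CPM in Wt and 0.338, 0.443 and 0.114 in Tg7 libraries, 23.9-fold lower (−4.58, SE 0.46, adjusted p = 1.17e-05). Over the 3 Tg7 libraries, 32 counts were left at 2w and 16 at 12w. Kcnj2, another Kir2 channel, moved the other way. It had 6.41, 5.60 and 6.01 CPM in 2w Wt and 12.1, 12.0 and 12.5 in 2w Tg7 libraries (1.02, SE 0.26, adjusted p = 0.022), and 1.51, 1.75 and 3.67 in 12w Wt against 8.23, 8.85 and 7.84 in 12w Tg7 libraries (1.8, SE 0.28, adjusted p = 4.24e-04). The 2 genes lie on the same chromosome, Kcnj2 at chr11:110927478-110938135. The call of Kcnj2 at 2w was lost when any 1 of the 3 Wt libraries of that age or Tg7 replicate 3 was left out, at an adjusted p between 0.0549 and 0.0893.

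Kcnj11 (chr7:53352533-53355607) was lower in Tg7 islets at both ages. Its levels were 145.7, 153.6 and 134.3 CPM in 2w Wt and 72.3, 73.7 and 54.3 in 2w Tg7 libraries, 2.17-fold lower (−1.11, SE 0.16, adjusted p = 7.40e-04). At 12w they were 116.0, 171.6 and 172.0 in Wt and 103.6, 103.6 and 94.6 in Tg7 libraries, 1.52-fold lower (−0.61, SE 0.16, adjusted p = 0.0138). The 12w call was lost in 3 of the 19 other settings, among them scaling by library size alone (−0.18, adjusted p = 0.503) and without Tg7 replicate 3 (−0.56, adjusted p = 0.0658). Its partner gene Abcc8 lies 4285 bases away and had 1020, 981.1 and 1007 CPM in 2w Wt against 360.9, 549.7 and 376.5 in 2w Tg7 libraries (−1.23, SE 0.17, adjusted p = 4.75e-04). At 12w Abcc8 had 887.4, 1072 and 833.8 CPM against 627.6, 761.8 and 709.8, which did not overlap but missed the threshold (−0.41, SE 0.17, adjusted p = 0.0876). The ratio of Kcnj11 to Abcc8, both per kb, was 0.232 ± 0.0188 in 2w Wt, 0.257 ± 0.0575 in 2w Tg7, 0.267 ± 0.0614 in 12w Wt islets and 0.233 ± 0.0285 in Tg7 islets of that age, with overlapping libraries in all 4 groups. The change of the Tg7 effect on Kcnj11 between ages was 0.51 on the log2 scale (SE 0.22, adjusted p = 0.32). The fall of Kcnj11 stood beside that of the β-cell markers, and their part in it was not tested.

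A voltage-gated channel also fell at both ages. Kcnh1, of the ether-a-go-go type (chr1:194014666-194334041), had 27.5, 13.3 and 23.7 CPM in 2w Wt and 3.31, 5.07 and 3.97 in 2w Tg7 libraries, 5.24-fold lower (−2.39, SE 0.34, adjusted p = 6.26e-04). At 12w it had 13.5, 16.0 and 30.1 CPM against 9.64, 6.70 and 6.81, 2.59-fold lower (−1.37, SE 0.32, adjusted p = 0.00747). It stayed called under every one of the 19 other settings tried at each age, as did Kcnj12. Kcnab3, a cytoplasmic β subunit of voltage-gated channels that holds one of the seed matches, was called lower at 2w only. It had 52.1, 41.3 and 40.7 CPM in Wt and 14.6, 14.03 and 13.7 in Tg7 libraries (−1.67, SE 0.30, adjusted p = 0.00323). At 12w its Wt libraries spread from 17.9 to 57.0 CPM and overlapped the Tg7 range of 17.0 to 24.3 (−0.78, SE 0.30, adjusted p = 0.0735). Of its exon bases, 5.1% overlap Gm16040 on the opposite strand, whose row held 136 counts in all.

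7 genes were higher in Tg7 islets at both ages. The greatest rise was that of Kcns3, an electrically silent subunit that joins other voltage-gated subunits and alters their gating (chr12:11097008-11157648). It had 0.237, 0.295 and 0.106 CPM in 2w Wt and 1.39, 2.01 and 1.89 in 2w Tg7 libraries (8.27-fold, log2 fold change 3.05, SE 0.72, adjusted p = 0.0156). In 12w islets it had 0.126, 0 and 1 CPM in Wt and 11.8, 8.24 and 8.01 in Tg7 libraries (21.8-fold, 4.45, SE 0.67, adjusted p = 3.27e-04). The Wt values rest on few reads, 10 counts at 2w and 16 at 12w over the 3 libraries, and without 12w Wt replicate 4, which held the 1 CPM, the 12w value rose to 7.36.

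Kcnn4, the intermediate-conductance calcium-activated channel (chr7:25155282-25170228), had 0.712, 0.295 and 0.479 CPM in 2w Wt and 3.79, 3.44 and 2.98 in 2w Tg7 libraries (6.69-fold, 2.74, SE 0.43, adjusted p = 0.00132). Its 12w levels were 1.89, 2.22 and 0.733 CPM against 5.75, 5.81 and 4.75 (3.41-fold, 1.77, SE 0.40, adjusted p = 0.00585). Kcnk2, a mechanically gated two-pore-domain channel (chr1:191031816-191167711), had 0.415, 1.03 and 1.17 CPM in 2w Wt and 3.15, 2.92 and 3.58 in 2w Tg7 libraries (3.67-fold, 1.88, SE 0.42, adjusted p = 0.0118). At the later age it had 2.27, 1.03 and 0.733 CPM against 8.74, 7.47 and 7.72 (6.22-fold, 2.64, SE 0.42, adjusted p = 5.35e-04). In all 4 of these comparisons the Tg7 libraries lay above every Wt library. Kcnc1, a fast Kv3 channel, had 0.692 to 1.31 CPM in 2w Wt and 2.34 to 4.68 in 2w Tg7 libraries (1.69, SE 0.46, adjusted p = 0.0311), and 0.159 to 0.600 in 12w Wt against 2.23 to 4.04 in 12w Tg7 libraries (2.95, SE 0.52, adjusted p = 0.00111). Kcnmb4, a BK β subunit with a seed match, had 1.33 to 3.09 CPM in 2w Wt and 6.35 to 8.64 in 2w Tg7 libraries (1.83, SE 0.42, adjusted p = 0.013). At 12w it had 1.01 to 3.65 against 3.83 to 5.86 CPM (1.30, SE 0.43, adjusted p = 0.0408), and this call was lost in 9 of the 19 other settings. Over 20% of its exon bases overlap 4933400F03Rik on the opposite strand, whose 2 rows held 95 and 0 counts. The seventh gene, Kcnk12, a two-pore-domain subunit, rose 2.00-fold at 2w and 2.21-fold at 12w. Single 2w Wt libraries decided several of these 2w calls. Without replicate 1 Kcnk12, Kcnk2, Kcns3 and Kcnc1 had an adjusted p of 0.0600, 0.0534, 0.0589 and 0.0601, without replicate 2 Kcnmb4 and Kcnc1 had 0.0596 and 0.0833, and without replicate 3 Kcns3, Kcnmb4 and Kcnc1 had 0.0917, 0.0717 and 0.143. The call of Kcnn4 held without any 1 library at both ages.

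**Figure D3:**
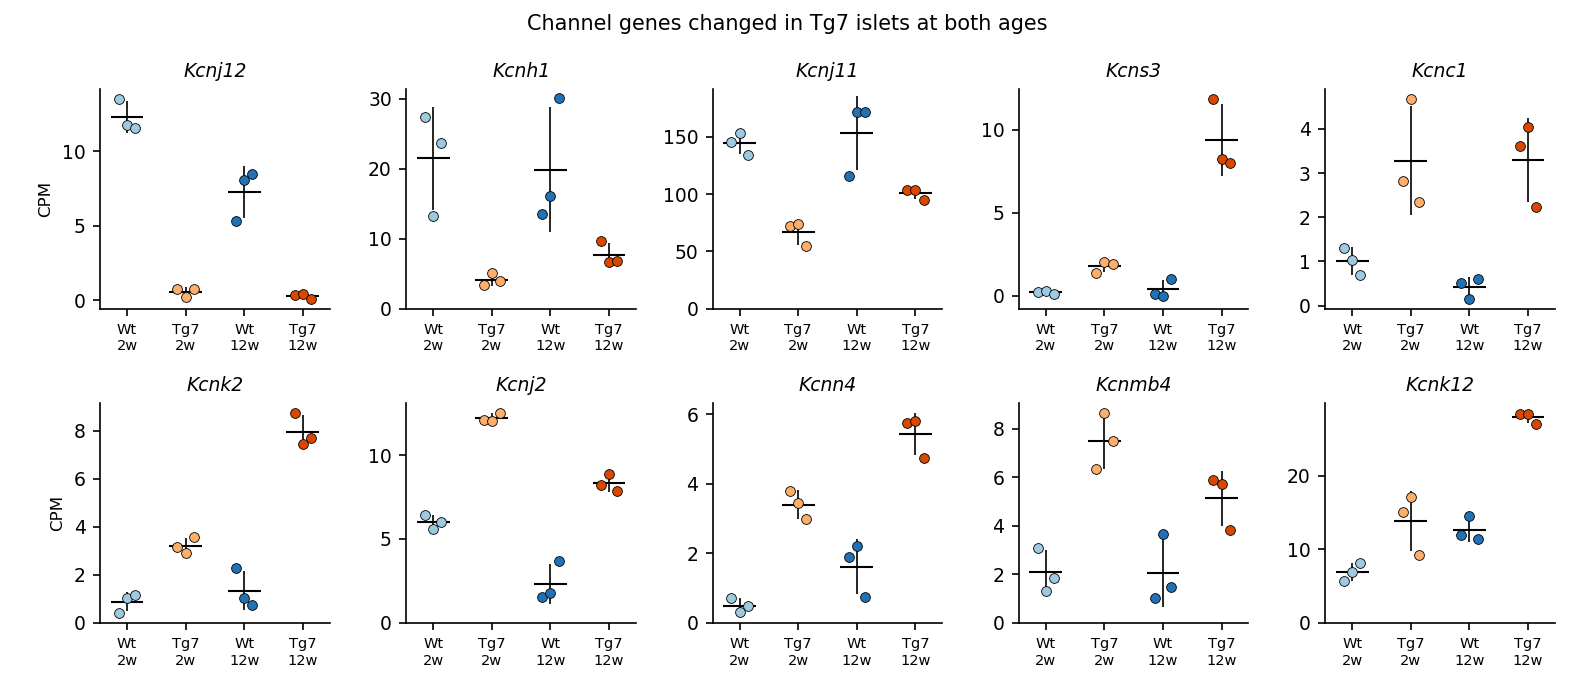
Each panel gives the CPM of 1 of 10 channel genes called changed in Tg7 islets at both ages, with 1 point a library, a horizontal bar for the mean and a vertical bar for 1 SD (n = 3). The first 3 panels hold genes that were lower in Tg7 islets, and the 7 others were higher at both ages, with no overlap between Wt and Tg7 libraries of the same age.

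The last gene called at 2w was Kcnn2, a small-conductance calcium-activated channel, with 1.66, 2.65 and 2.87 CPM in Wt and 7.31, 6.11 and 4.37 in Tg7 libraries (1.30, SE 0.38, adjusted p = 0.0436). Its call was lost in 8 of the 19 other settings. Kcnt1, a sodium-activated channel, just missed the threshold at 2w, with 1.01, 1.77 and 2.18 CPM against 4.70, 7.27 and 5.17 (1.78, SE 0.54, adjusted p = 0.0515). It was called higher at 2w in some of the 19 other settings and not in the rest. Among those that called it were DESeq2 (1.79, adjusted p = 0.00916) and each age alone (1.785, adjusted p = 0.0124). A set of rectifier genes of epithelial cells stood out most in 1 library and was chosen after its values were seen. Kcnj15 had 89.7 CPM in 2w Tg7 replicate 3 against 21.98 and 36.4 in the other two, and Kcnj16 had 62.9 against 13.4 and 21.2. Kcnj1 followed with 15.5 against 3.47 and 7.02 CPM. None of the 3 was called, and the sum of the 6 ductal markers was 597.4 CPM in that library against 479.6 and 492.4 in the others. Its sum of 7 acinar markers was 0.596 CPM, against 16.7 and 7.02. In the 2w Wt libraries the ductal sum was 539.4 to 569 CPM, with Kcnj15 at 16.0 to 25.1. The highest ductal sum, 987.2 CPM in 12w Tg7 replicate 1, went with 19.9 CPM of Kcnj15. In 12w Wt replicate 1, Kcnj15 had 51.1 and Kcnj16 35.3 CPM, with a ductal sum of 406.4. Most of the ductal sum came from Krt7 and Spp1, with means of 361.4 and 92.2 CPM in 2w Tg7 islets. In 12w Tg7 islets their means were 440.9 and 326.3 CPM. Krt19 was at 5.84 CPM in 2w Tg7 and 2.055 CPM in 12w Tg7 islets. The part of ductal cells was not tested.

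At 12w, in diabetic mice, 24 of the 69 channel genes (34.8%) were called changed, against 23.6% of all genes. Of these, 18 were higher (26.1%, against 12.5% of all genes) and 6 were lower (8.70%, against 11.2%). The median log2 fold change was 0.36 for the channel genes and −0.01 for all genes. Under the filter of 50 counts in 3 libraries, 53 channel genes were left, with a median of 0.05 against −0.02 for all genes. Of these 53, 17 were called higher and 6 lower. With scaling by library size alone, which moved the median of all genes to 0.43 and that of the channel genes to 0.76, 33 were called higher and 3 lower, so that the share of calls that were higher was 91.7% in place of 75%. Groups did not overlap for 24 genes with higher Tg7 libraries (34.8%, against 20.7% of all genes) and for 8 with lower ones (11.6%, against 16.3%). Without 12w Wt replicate 4, 26 genes were called, 20 of them among the 24. Of the 13 genes called at 2w, 11 were called again in the same direction, which is 84.6% of the 2w calls and 45.8% of the 12w calls. The other two were Kcnab3 and Kcnn2, and 43 channel genes were called at neither age. For all tested genes the share called at both ages was not worked out, so 84.6% is not read as a trait of channel genes.

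**Figure D4:**
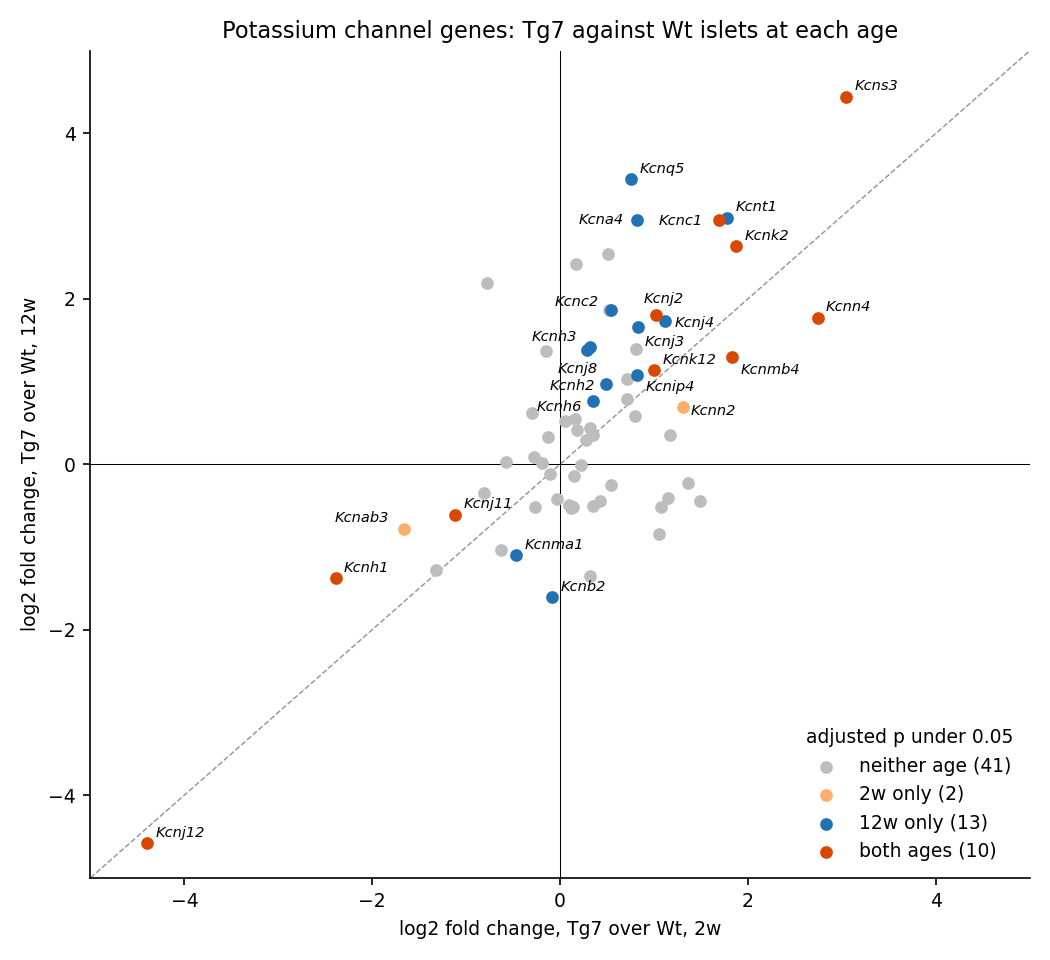
Each point is 1 of 66 tested channel genes, with its log2 fold change of Tg7 over Wt islets at 2w on the horizontal and at 12w on the vertical axis. Colours mark the age at which the adjusted p was under 0.05, and the dashed line marks equal values. Kcnj12 and Kcns3 lie at the 2 ends, and of the genes called at 12w only all but Kcnb2 and Kcnma1 lie above the dashed line.

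At 12w 12.5% of all genes were called higher and 11.2% lower. Among the voltage-gated channels 8 of 29 tested rows were higher and 3 lower at 12w. Beside Kcns3 and Kcnc1, the greatest rises were those of Kcnq5 and Kcna4, both at low levels. Kcnq5, a Kv7 channel with a seed match, had 0, 0.0794 and 0.200 CPM in 12w Wt and 1.24, 0.885 and 1.66 in 12w Tg7 libraries (10.9-fold, 3.45, SE 0.69, adjusted p = 0.00277), with 4 counts in the Wt and 67 in the Tg7 libraries. Kcna4, a rapidly inactivating channel, had 0, 0 and 0.400 CPM against 1.52, 0.885 and 1.43 (7.75-fold, 2.95, SE 0.90, adjusted p = 0.0287), with 6 and 68 counts. It lost its call in 5 other settings, each of which left out 1 of the 12w libraries. Kcnq5 and Kcna4 had too few counts to be tested under the filter of 50 counts in 3 libraries. The ERG channels were far more abundant. Kcnh2 had 56.5, 81.0 and 120.1 CPM in 12w Wt and 171.5, 168.9 and 166.8 in 12w Tg7 libraries (1.96-fold, 0.97, SE 0.20, adjusted p = 0.00292). Kcnh6 had 54.1, 65.4 and 55.6 CPM against 91.6, 103.2 and 103.2 (1.70-fold, 0.77, SE 0.15, adjusted p = 0.00234). At 2w these differences were smaller and not called, with 0.49 for Kcnh2 (SE 0.20, adjusted p = 0.123) and 0.35 for Kcnh6 (SE 0.15, adjusted p = 0.148). Kcnh3, of the same gene family, rose 2.67-fold at 12w.

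Kcnc2, a Kv3 channel (chr10:111708179-111903360), was the only channel gene called for a difference of the Tg7 effect between the ages. It had 7.001, 8.03 and 10.0 CPM in 2w Wt and 13.0, 12.9 and 10.6 in 2w Tg7 libraries (0.54, SE 0.20, adjusted p = 0.0959). At 12w it had 6.43, 7.38 and 5.53 CPM in Wt and 18.7, 24.8 and 27.2 in Tg7 libraries (3.65-fold, 1.87, SE 0.21, adjusted p = 2.93e-05). The 12w effect was greater by 1.33 on the log2 scale (SE 0.28, adjusted p = 0.0415). This 1 of 69 is 1.45%, against 1.18% of all genes called for the same difference, or 0.871% in the positive direction. At an unadjusted p under 0.05 the difference was positive for 7 and negative for 6 channel genes. The call was lost in 9 of 18 other settings, with an adjusted p of 0.0572 under the replicate block and up to 0.133 without 2w Wt replicate 3, while the value stayed between 1.15 and 1.62 over all of them. Without 12w Wt replicate 4, 4 channel genes were called for the difference.

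Of the inward rectifiers 4 of 12 tested were higher and 2 lower at 12w, against 12.5% and 11.2% of all genes. Kcnj3, the G protein-gated subunit that couples receptors to membrane potential, had 3.66, 7.22 and 5.53 CPM in Wt and 21.4, 11.6 and 19.6 in Tg7 libraries (3.16-fold, 1.66, SE 0.31, adjusted p = 0.00171). Its exons overlap Gm17595 on the opposite strand over 31.1% of their bases, and that row held 54 counts. Its partner Kcnj6 had 4.29 to 7 CPM in 12w Wt and 4.54 to 5.89 in 12w Tg7 libraries (−0.14, SE 0.28, adjusted p = 0.769). Kcnj4, another Kir2 gene, rose 3.34-fold (1.74, SE 0.47, adjusted p = 0.0164), a call lost in 4 of 19 other settings, among them without Wt replicate 1 or 4 or Tg7 replicate 1 of that age. Without Wt replicate 2 it was at 2.73. Kcnj8, the pore subunit of the ATP-sensitive channel of blood vessels (chr6:142513459-142519876), had 1.26, 1.35 and 1.13 CPM in 12w Wt and 3.21, 2.82 and 3.72 in 12w Tg7 libraries (2.60-fold, 1.38, SE 0.32, adjusted p = 0.00626). Abcc9, its partner 16505 bases away, had 5.29, 3.26 and 5.73 CPM against 8.74, 8.13 and 9.96 (0.91, SE 0.23, adjusted p = 0.0121). The summed level of the 11 stellate, pericyte and fibroblast markers was 93.4 to 155.9 CPM in the 12w Wt libraries and 402.9 to 424.4 CPM in the Tg7 libraries. That of the 8 endothelial markers was 352.5 to 446.5 CPM in the Wt and 723.5 to 780.3 CPM in the Tg7 libraries. The part of these cells in the rise of Kcnj8 and Abcc9 was not tested.

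Calcium- and sodium-activated channels were mixed. Kcnt1 had 2.14, 0.556 and 0.200 CPM in 12w Wt and 3.78, 7.75 and 8.87 in 12w Tg7 libraries (7.89-fold, 2.98, SE 0.61, adjusted p = 0.0031), and its call held in the 19 other settings. With 1 library left out the value ranged from 2.43, without Wt replicate 4, to 4.16, without Wt replicate 1. Kcnma1, the BK pore subunit, was called lower, with 44.6, 25.9 and 85.1 CPM in Wt and 24.1, 24.9 and 23.8 in Tg7 libraries (2.14-fold, −1.10, SE 0.32, adjusted p = 0.0231). The value fell to −0.52 with an adjusted p of 0.121 without Wt replicate 4, which had the 85.1 CPM, and 7 of 19 other settings lost the call. Kcnb2, a delayed rectifier, was called lower in 1 of its 2 rows (ENSMUSG00000092083, chr1:15302533-15701710), with 4.29, 1.99 and 10.1 CPM in Wt and 1.41, 2.82 and 1.20 in Tg7 libraries, which overlap (−1.60, SE 0.55, adjusted p = 0.0481). It went to −0.76 with an adjusted p of 0.324 without the same Wt replicate 4 and lost its call in 12 of 19 settings. The second Kcnb2 row, directly downstream, was at −1.35 (SE 0.51, adjusted p = 0.0702). The highest value of Kcnmb2 and of Kcnn3 over all 12 libraries was also in that library.

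Other named genes of islet physiology were not called at either age. Kcnk16 differed by 0.32 on the log2 scale in the younger mice (SE 0.18, adjusted p = 0.261) and by 0.44 in the older (SE 0.18, adjusted p = 0.0905), with all Tg7 above all Wt libraries at 2w and overlap at 12w. The 12w result turned on 1 library, since Kcnk16 was called higher without Wt replicate 4 (0.73, adjusted p = 5.75e-04), and it was called with upper-quartile factors (0.54, adjusted p = 0.0218) and library size alone (0.85, adjusted p = 0.0127) as well. At 2w it was called in 2 of the 19 other settings, each age alone (0.33, adjusted p = 0.0353) and without 12w Wt replicate 4 (0.32, adjusted p = 0.0452). Kcnk3, an acid-sensitive two-pore-domain channel, had 23.3 to 29.3 CPM in 2w Wt and 20.7 to 40.0 in 2w Tg7 libraries, and 21.1 to 31.0 against 15.8 to 21.7 at 12w (−0.50, SE 0.24, adjusted p = 0.164). Kcnq1, a Kv7 channel, lay between 1.8 and 3.81 CPM in every library and differed by −0.19 at 2w (SE 0.34) and 0.01 at 12w (SE 0.35). Kcnd3, a Kv4 channel, had 1.25 to 1.69 CPM in 2w Wt and 0.844 to 1.44 in 2w Tg7 libraries, and 1.64 to 2.53 against 2.46 to 3.60 at 12w (0.62, SE 0.36, adjusted p = 0.239).

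A list of 31 channel partners and potassium transport genes gave 28 that could be tested. At 2w, 3 were higher and 2 lower, where 10.6% of all genes were called, and at 12w 6 were higher and 3 lower, where 23.6% were, with medians of 0.02 and 0.09 on the log2 scale. Slc12a4, a potassium-chloride cotransporter, rose at both ages, with 25.8, 28.4 and 30.1 CPM in Wt libraries of 2w and 49.0, 51.9 and 46.6 in those of Tg7 mice (0.81, SE 0.14, adjusted p = 0.00198). At 12w it went from 12.0, 17.2 and 14.3 to 50.1, 45.5 and 47.8 CPM (1.71, SE 0.14). Dpp10, which modulates Kv4 channels, was lower at 12w, with 19.7, 17.2 and 30.1 CPM in Wt and 8.06, 10.2 and 4.98 in Tg7 libraries (−1.53, SE 0.26, adjusted p = 8.04e-04). At 2w Dpp10 had 18.3, 15.5 and 13.4 against 19.4, 21.7 and 19.6 CPM (0.37, SE 0.25, adjusted p = 0.376), and the difference between the ages was called (−1.89, SE 0.36, adjusted p = 0.0198). That of Slc12a4 was called as well (0.90, SE 0.19, adjusted p = 0.0415), and was lost in 10 of 18 other settings. Fxyd6, a regulator of the sodium pump, was higher and the pump subunit Atp1b3 lower at both ages. The remaining calls were Abcc8 lower and Fxyd2 higher at 2w, and at 12w Abcc9, Lrrc55, Slc12a5 and Tmem38a higher and Amigo1 lower. Those of Abcc8, Slc12a5 and Tmem38a held in the 19 other settings, and that of Abcc9 was lost in 2. The call of Amigo1 (−0.42, SE 0.14, adjusted p = 0.0490) was lost in 17 of the 19, and library size alone turned its sign (0.015). Fxyd2 had 44.7, 94.0 and 57.5 CPM in 2w Wt and 93.6, 126.1 and 331.8 in 2w Tg7 libraries, which overlap (1.49, SE 0.44, adjusted p = 0.0443). Its call was lost in 8 of 19 settings, and it was at 0.74 without Tg7 replicate 3, which had the 331.8 CPM. Lrrc55, with 3 counts in the 12w Wt and 46 in the 12w Tg7 libraries, lost its call in 3 of 18.

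Between 2w and 12w, 15 of 69 channel genes (21.7%) changed in Wt islets, against 15.8% of all genes, 8 of them higher (11.6%, against 7.90%) and 7 lower (10.1%, against 7.91%) at 12w. With scaling by library size alone, which moved the median of all genes to −0.35, 4 were called higher and 14 lower, a share of higher calls of 22.2% in place of 53.3%. The greatest rise was that of Kcnf1, also an electrically silent subunit (chr12:17178908-17183694). It had 1.01, 0.147 and 0.532 CPM in 2w Wt and 3.15, 11.4 and 9.47 in 12w Wt libraries (3.79, SE 0.56, adjusted p = 4.82e-04). In Tg7 islets it had 0.480, 0.390 and 0.248 CPM at 2w and 4.23, 3.76 and 3.83 at 12w (3.38, SE 0.57, adjusted p = 0.00161). Kcnip2, a Kv4 partner protein, had 1.19, 0.663 and 1.70 CPM in 2w Wt and 4.16, 11.2 and 9.67 in 12w Wt libraries (2.80, SE 0.44, adjusted p = 7.70e-04). Kcnn4, higher in Tg7 islets at both ages, also rose with age in Wt islets (1.645, SE 0.46, adjusted p = 0.0254). This call was lost without 2w Wt replicate 2 or 3 or without 12w Wt replicate 1 or 2. Kcnip1 went from 77.3, 44.0 and 59.0 to 142.9, 112.3 and 143.5 CPM (1.14, SE 0.19, adjusted p = 0.00106), and from 40.7, 57.2 and 51.5 to 89.5, 95.1 and 93.8 CPM in Tg7 islets (0.90, SE 0.19, adjusted p = 0.00585). Kcnip4, of the same family, was called higher in both genotypes (1.07 in Wt, SE 0.30, adjusted p = 0.0278, and 1.34 in Tg7, SE 0.29, adjusted p = 0.00720). Its call in Wt was lost in 6 of 18 other settings, among them library size alone and without any 1 of the 2w Wt libraries. Kcnip3, which also acts as a transcriptional repressor, fell in both (−1.04 in Wt, SE 0.20, and −1.02 in Tg7, SE 0.19).

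Kcnj8 fell with age in Wt islets, from 7.12, 4.05 and 4.68 to 1.26, 1.35 and 1.13 CPM (−2.08, SE 0.31, adjusted p = 5.84e-04), and Abcc9 fell with it (−2.02, SE 0.23, adjusted p = 7.92e-05). Over the same libraries the endothelial marker sum was 801.4 to 1057 CPM at 2w and 352.5 to 446.5 at 12w, and the stellate, pericyte and fibroblast sum was 359.8 to 505.8 CPM at 2w and 93.4 to 155.9 at 12w. Their part in the fall was not tested. Kcna1 and Kcna6, delayed rectifiers of nerve fibres, and Kcnq5 also fell with age, from low levels. Kcna6 went from 1.42, 2.21 and 1.49 to 0.126, 0.318 and 0.467 CPM (−2.36, SE 0.65, adjusted p = 0.0239), with 39.5% of its exon bases shared with Gm17456 on the opposite strand. Kcna1 had the weakest call of these (−2.11, SE 0.67, adjusted p = 0.0476), lost in 11 other settings, while that of Kcna6 was lost in 4 and that of Kcnq5 in 2. Kcna1, Kcna6 and Kcnq5 had too few counts to be tested under the filter of 50 counts in 3 libraries. Kcnj2, Kcnj8, Kcnh6 and Kcnq5 were lower with age in Wt islets and higher in Tg7 than in Wt islets at 12w. Both comparisons use the same 12w Wt libraries, so their log2 values are only set side by side: −1.33 and 1.8 for Kcnj2, −2.08 and 1.38 for Kcnj8, −0.82 and 0.77 for Kcnh6, and −2.73 and 3.45 for Kcnq5. Kcnn4, Kcnk12 and Kcnip4 were instead called higher in both comparisons. In that order their values were 1.645 and 1.77, 0.88 and 1.14, and 1.07 and 1.08. Their calls with age in Wt were all lost without 2w Wt replicate 2. For all tested genes the share with either pattern was not worked out.

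**Figure D5:**
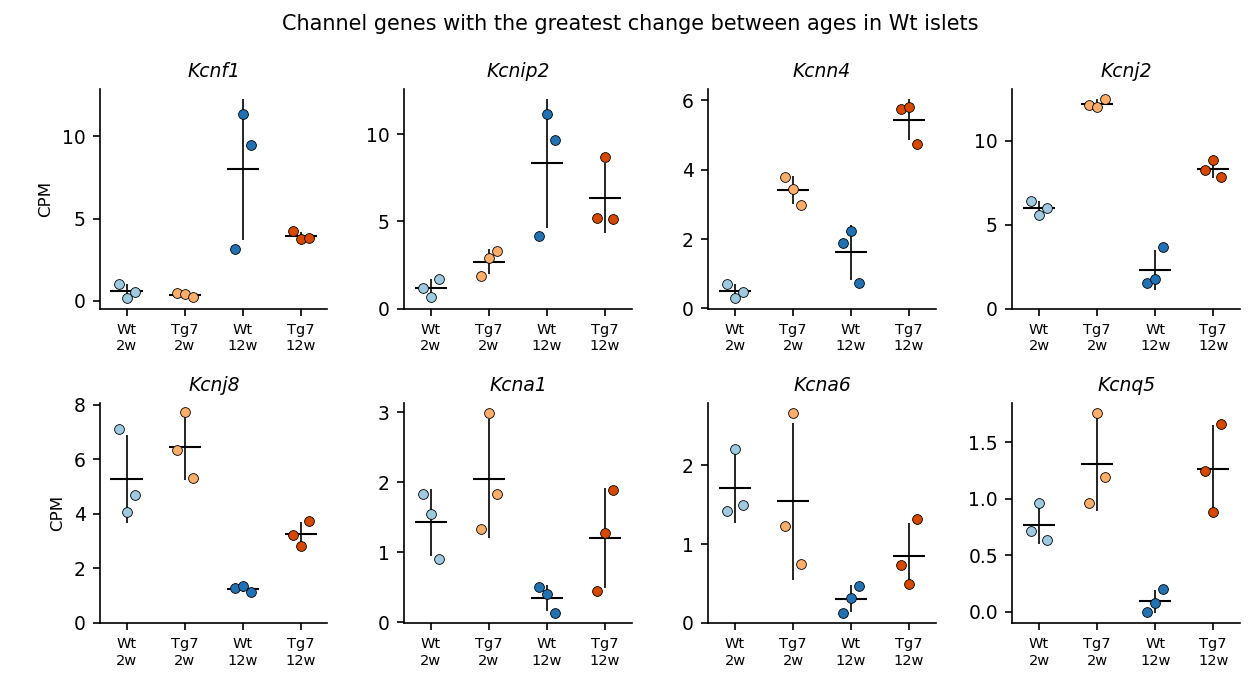
Each panel gives the CPM of 1 of the 8 channel genes with the greatest log2 change among those called changed between 2w and 12w in Wt islets, ordered from the greatest rise to the greatest fall, with 1 point a library and bars for the mean and 1 SD (n = 3). The 12w libraries of Kcnf1 and Kcnip2 lie above the 2w libraries of the same genotype, and Kcnj8 and Kcnq5 are lowest in the 12w Wt libraries.

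In Tg7 islets 17 of 69 channel genes (24.6%) changed between 2w and 12w, against 13.0% of all genes, and 14 of these were higher (20.3%, against 7.02%) and 3 lower (4.35%, against 6.01%) at 12w. Kcns3 rose by 2.41 on the log2 scale (SE 0.55, adjusted p = 0.0111), Kcnk2 by 1.31 (SE 0.38, adjusted p = 0.0358) and Kcnj11 by 0.59 (SE 0.16, adjusted p = 0.0258). The call of Kcns3 was lost without 12w Tg7 replicate 1 (adjusted p = 0.0652). Leaving out 1 Tg7 library ended the call of Kcnk2 for each of the 6, and that of Kcnj11 for 4 of them. With scaling by library size alone 10 were called higher and 4 lower, so that the share of calls that were higher was 71.4% in place of 82.4%. The 3 lower genes were Kcnip3, Kcnj8 and Kcnk6. The call of Kcnk6 was lost in 11 of 18 other settings, with −0.91 (adjusted p = 0.246) without 2w Tg7 replicate 1 in place of −1.54, and that of Kcnj8 in 6. Kcnk1 was higher at 12w in both genotypes, from 39.9 to 42.0 CPM up to 57.2 to 74.2 in Wt (0.66, SE 0.13, adjusted p = 0.00319) and from 43.3 to 50.5 up to 57.3 to 68.4 in Tg7 islets (0.42, SE 0.12, adjusted p = 0.0405). The call in Wt was lost with library size alone (0.25, adjusted p = 0.209), and that in Tg7 in 11 of 18 settings, among them without any 1 of the 2w Wt or of the Tg7 libraries. Kcnk1 did not differ detectably between genotypes at 12w (−0.01, SE 0.12), where scaling by library size alone turned the sign (0.44, adjusted p = 0.0252).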

How the data were processed

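Per the labels and the methods, pooled islet RNA went into an NEB Ultra II library preparation, and the authors trimmed reads with Trimmomatic, aligned them to mm9 (NCBIM37) with TopHat2 2.0.11 and counted them per Ensembl gene with featureCounts. The counter's strand setting was not stated in the labels or methods, so reads of a gene and of an overlapping antisense gene cannot be told apart. The deposited raw counts of all 12 libraries were used. Symbols were matched for 37205 of 37991 rows, and rows without one held 0.0727% of counts.

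Genes were filtered with filterByExpr (minimum count 10, minimum total 15), scaled with TMM and fitted as 4 group means in 1 model with edgeR 4.0.16 (glmQLFit, glmQLFTest; common biological coefficient of variation 0.212), and p-values were adjusted by Benjamini-Hochberg and called under 0.05. The method was tested on simulated data, with the same dispersion for every gene and no outlying library. No changes were placed in the genes of lowest level, so the simulation does not cover such genes or outlying libraries. Alternatives were DESeq2 1.42.0, upper-quartile factors, scaling by library size alone, tests without a low-count filter, a filter of 50 counts in 3 libraries, the replicate number as a block, each age alone, and each library left out. Exon lengths and 3′ UTRs came from the annotation of the same build.

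The members and lists were chosen with earlier results of these data known. Named with values were 32 members by rule. The rule took 14 of 16 textbook islet channels and the 8 highest per kb. It also took the 8 greatest called changes at 2w, at 12w and with age in Wt islets. Members called for a difference of the effect between ages were taken as well. Of the members, 3 are counted in totals but not reported here by name or in the plots of single genes. All others are given by counts, or were named after their values were seen. No replicates agreed within sampling noise (lowest chi-square per degree of freedom 6.91).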

Additional observations from a re-analysis of the deposited data

Results flagged for a closer look

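The Tg7 effect on Kcnc2 was greater at 12w than at 2w by 1.328 on the log2 scale (SE 0.28, adjusted p = 0.0415 in the edgeR test of the difference itself). It was noted because it is the 1 channel gene called by that test for a difference of the Tg7 effect between the 2 ages. All Tg7 libraries lay above all Wt libraries at both ages. The call was lost in 9 of 18 other settings, in which the value kept its sign.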

How the results depend on the processing

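Some genes were not tested in every other setting, and only settings that tested a gene are counted for it. Of the channel genes called, 6 of 13 at 2w and 17 of 24 at 12w held in all of up to 19 settings. The stricter filter called 22 of the 24 at 12w, and Kcna4 and Kcnq5 had too few counts to be tested under it. Kcnq5 is among the 17. For age, 7 of 15 in Wt and 8 of 17 in Tg7 islets held in all 18. For the difference between ages, 0 of 1 did. With 1 library left out, the number called ranged from 7 to 18 at 2w, 19 to 26 at 12w, 0 to 4 for the difference between ages, 8 to 17 for age in Wt and 8 to 24 for age in Tg7 islets. Without 2w Wt replicate 2, 8 were called for age in Wt, and without 12w Tg7 replicate 1, 8 for age in Tg7 islets. Under DESeq2 14, 30, 1, 21 and 21 genes were called in the same order. Only 12w Wt replicate 4 carries the number 4, so the replicate block gave that library a term of its own. At 12w the block is thus close to leaving that library out. The replicate block gave 17 calls at 2w and 24 at 12w, 19 of which were among those without the block. It ended the 12w calls of Kcnj11 (−0.425, adjusted p = 0.0501), Kcnj4 (1.335, adjusted p = 0.0948), Kcnb2, Kcnma1 and Kcnmb4, and under it Kcnk16 was called at 12w (0.738, adjusted p = 0.00141). The numbers did not pair the libraries: residuals of same-numbered libraries correlated at −0.0214, −0.167 and −0.0343 at 2w and −0.0894 and −0.0112 at 12w.

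Among the channel genes named, signs turned only for those not called, and the cause was not tested. At 12w, library size alone gave 0.004 for Kcnip2, 0.29 for Kcnj6 and 0.44 for Kcnk1 (adjusted p = 0.0252), upper-quartile factors 0.07 and the stricter filter 0.009 for Kcnk1, and each age alone −0.017 for Kcnq1. For Kcnmb2 at 2w, library size alone gave 0.14 and upper-quartile factors 0.023. Under the replicate block at 12w, Kcnmb2 was at 0.028 and Kcnq1 at −0.29. With 1 library left out, values ranged from −0.788 to 0.175 for Kcna6, −1.036 to 0.043 for Kcnf1, −0.09 to 0.27 for Kcnj6, −0.277 to 0.252 for Kcnk3 and −0.158 to 0.099 for Kcnmb2 at 2w, and from −0.303 to 0.078 for Kcnj6, −0.09 to 0.074 for Kcnk1, −0.661 to 0.041 for Kcnmb2 and −0.264 to 0.439 for Kcnq1 at 12w. Among the calls at 12w the widest ranges over settings were those of Kcna4, Kcns3 and Kcnt1, which had 6, 16 and 27 counts over the 12w Wt libraries.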
